A study of Mus musculus with 46 samples.

Results

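The RNA levels of 9 genes of the ubiquitin and UFM1 conjugation systems were compared in mouse embryonic fibroblasts (MEFs), with and without the transcription factor ATF4 and with and without borrelidin. The genes are 3 F-box ligase subunits (Skp2, Fbxl4, Fbxl7), the ring-type ligases Rnf19a and Topors, the HECT ligase Wwp1, the UFM1 ligase Ufl1 and the cytosolic E2 enzymes Ube2r2 and Ube2h. They were taken, out of 55416 identifiers of the count table, by their mouse gene identifiers. Members with a mean under 5 normalized CPM (counts scaled to a common library size) over all libraries were then dropped. This left 8 of 9 members, because Fbxl7 averaged 0.723 ± 0.632 CPM (SD, n = 46) and lay between 0 and 2.72 CPM in every library.

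Ubiquitin is activated by an E1 enzyme, passed to an E2 conjugating enzyme and placed on a substrate by an E3 ligase, which gives the system its specificity. F-box proteins are the exchangeable substrate receptors of SCF (SKP1, cullin and F-box) ligases. RING ligases hold E2 and substrate together, while HECT and RING-between-RING ligases carry ubiquitin on a cysteine of their own before handing it over. UFM1 is a small ubiquitin-like protein with its own E1, E2 and E3, known for modifying ribosomes at the endoplasmic reticulum.

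Of the 46 libraries, 12 came from ATF4 KO cells given borrelidin and 11 from ATF4 KO cells given vehicle, and 12 came from wild type cells given borrelidin and 11 from wild type cells given vehicle. Borrelidin, an inhibitor of threonyl-tRNA synthetase, was given at 600 nM in DMSO for 7 h, and vehicle cells had DMSO alone for the same time. The wild type MEFs were purchased and the ATF4 KO line was made by CRISPR/Cas9 editing and cell sorting, so each genotype is 1 line, and the loss of ATF4 and other differences between the lines cannot be told apart. Libraries are labelled as biological replicates, and p-values measure the spread between them. In bulk RNA, fewer cells with a transcript and less of it per cell cannot be told apart.

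Each library held between 2047362 and 3467765 counts on identifiers (median 2869300). Replicate 5 of wild type with borrelidin had the highest unaligned share of reads (14.975%) and the lowest share without a feature (63.795%). It was the lowest library of its group for Skp2, Fbxl4, Rnf19a, Topors, Wwp1 and Ufl1, and the highest for Ube2r2. No fit without it was run. For most rows of the table the level did not follow the gene that the identifier names, so genes are named only in 3 chromosome segments (on chromosomes 4, 6 and 15) where it did, and these hold all 9 members. Of the 9, only Skp2 has a mean level in the copy of the study's own table used here. The other members are named from the matching genes around them. The row of Atf4 was not analysed here. Of 20 fibroblast markers, 8 lie in the segments, and their summed level was 2642 to 4457 CPM in ATF4 KO with borrelidin, 3687 to 5013 CPM in ATF4 KO with vehicle, 2941 to 4468 CPM in wild type with borrelidin and 2997 to 5540 CPM in wild type with vehicle. Of 23 markers of other cell types, 11 lie there, and they summed to 94.6 to 179 CPM in ATF4 KO with borrelidin, 92.5 to 145 CPM in ATF4 KO with vehicle, 95.1 to 177 CPM in wild type with borrelidin and 79.5 to 125 CPM in wild type with vehicle. Ccl19 was at 0 in every group, Cd72 gave most of the sum, and Pax5, a B cell factor, averaged 16.7 and 9.57 CPM in ATF4 KO with borrelidin and with vehicle, against 0.157 and 0.322 CPM in wild type with borrelidin and with vehicle. Flnc gave most of the fibroblast sum, and single fibroblast markers differed between the lines in both directions. Under vehicle, Npr3 and Mest averaged 16.3 and 8.63 CPM in ATF4 KO, against 68.8 and 15.5 CPM in wild type. Cav1 and Cav2 averaged 646 and 253 CPM in ATF4 KO, against 421 and 166 CPM in wild type. Whether these marker differences bear on the members was not tested.

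Libraries of a group did not all lie together. On the second principal component 14 libraries stood apart within their groups. These were 3 libraries of treated ATF4 KO cells, 3 of ATF4 KO cells with vehicle and 8 of wild type cells with vehicle. No library of wild type with borrelidin did. The set of a library and the treatment are therefore partly confounded in wild type, where only 3 vehicle libraries lay with the 12 borrelidin libraries. The component was computed from these same counts, and the study describes its own second component as separating libraries by treatment. The wild type vehicle libraries set apart were those farthest from the borrelidin libraries on it. Fits that use the set can therefore shrink or otherwise change a wild type response. Without the libraries set apart, that of Fbxl4 went from 0.54 to 0.31 and that of Wwp1 from 0.36 to 0.44. How much of such changes comes from the treatment was not tested. Results are given with all libraries. For the members, values with the set as a term or without the 14 libraries follow where a call or a direction changed, and for the other genes of these systems the counts are given in each of these ways.

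RefSeq promoters (GRCm38.p6, spanning a transcript start) were read for 7 of the 9 members. No promoter was at hand for Rnf19a and Wwp1, which were not searched. Both strands were searched for TTNCATCA, the core of the amino acid response element that ATF4 binds with its partners, for TGACGTCA, the cyclic AMP response element, and for GGGCGG, the GC box. None of the member promoters read held TTNCATCA, which 3.97% of all 32851 promoters hold. TGACGTCA, present in 1.79% of all promoters, stood in those of Topors and Ube2h, and GGGCGG, present in 35.7%, stood in those of Skp2, Fbxl4, Fbxl7, Ufl1, Ube2r2 and Ube2h. A match is a run of letters and no evidence of binding. Shown are the promoters of Skp2 (chr15:9140405-9140704, minus strand) and Ufl1 (chr4:25281772-25282071, minus strand), whose libraries separated by genotype under borrelidin, and of Topors (chr4:40269792-40270091, minus strand) and Ube2h (chr6:30304490-30304789, minus strand), which hold TGACGTCA. Skp2 and Ube2h each have a further annotated start, not shown. Capitals mark TGACGTCA and the GC box on either strand.
Skp2: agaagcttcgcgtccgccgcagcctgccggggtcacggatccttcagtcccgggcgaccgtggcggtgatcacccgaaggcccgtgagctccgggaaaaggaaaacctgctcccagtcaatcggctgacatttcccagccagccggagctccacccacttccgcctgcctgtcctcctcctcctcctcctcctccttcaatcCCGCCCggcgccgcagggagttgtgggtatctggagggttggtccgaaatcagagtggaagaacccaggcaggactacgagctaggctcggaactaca
Ufl1: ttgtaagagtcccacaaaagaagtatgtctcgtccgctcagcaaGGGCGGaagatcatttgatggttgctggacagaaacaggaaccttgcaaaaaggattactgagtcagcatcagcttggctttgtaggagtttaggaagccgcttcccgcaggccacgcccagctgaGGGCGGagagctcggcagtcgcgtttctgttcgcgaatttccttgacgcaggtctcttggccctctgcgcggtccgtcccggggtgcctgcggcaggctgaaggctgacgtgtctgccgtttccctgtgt
Topors: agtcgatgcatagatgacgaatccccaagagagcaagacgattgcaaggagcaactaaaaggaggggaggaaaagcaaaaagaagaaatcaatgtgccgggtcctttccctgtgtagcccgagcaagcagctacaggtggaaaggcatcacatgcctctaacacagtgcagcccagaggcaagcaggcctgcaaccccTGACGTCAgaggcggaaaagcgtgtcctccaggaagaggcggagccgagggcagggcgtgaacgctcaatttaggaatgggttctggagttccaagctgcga
Ube2h: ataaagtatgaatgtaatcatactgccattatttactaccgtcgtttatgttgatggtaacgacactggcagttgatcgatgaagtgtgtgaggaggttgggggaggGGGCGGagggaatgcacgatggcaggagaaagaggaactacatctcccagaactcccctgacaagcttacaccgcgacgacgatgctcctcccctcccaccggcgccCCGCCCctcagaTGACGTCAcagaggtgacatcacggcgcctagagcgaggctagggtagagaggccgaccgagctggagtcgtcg

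Per kilobase of exon, the mean level over the 46 libraries was 84.8 ± 14.6 CPM per kb for Ube2r2 (SD), 76.5 ± 7.42 for Topors and 68.7 ± 8.15 for Ube2h, which did not differ beyond their spread. Rnf19a (43.8 ± 9.11 CPM per kb), Skp2 (39.8 ± 11.2) and Wwp1 (33.3 ± 5.16) followed, again with overlapping ranges. Ufl1 had 18.1 ± 3 CPM per kb, Fbxl4 8.26 ± 2.08 and Fbxl7 0.111 ± 0.0968.

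Across all comparisons, the changes of the members were modest and did not share 1 direction. In ATF4 KO cells, borrelidin raised 3 of 8 members (Rnf19a, Ufl1, Ube2h), against 15% of all 8986 rows tested, and lowered 2 (Skp2, Ube2r2), against 15.3%, at an adjusted p under 0.05 in edgeR's quasi-likelihood test. In wild type cells it raised 3 of 8 members (Fbxl4, Wwp1, Ufl1), against 26.5% of rows, and lowered 0, against 32.9%. At an unadjusted p under 0.05 the count of lower members in wild type was also 0, and it was 0 in DESeq2 and in limma voom, but it depended on the library set and the scaling. In wild type, 2 members were higher (Fbxl4, Wwp1) and 3 lower (Skp2, Topors, Ube2h) with the set as a term, against 14% and 15.8% of rows, and without the libraries set apart 1 was higher (Wwp1) and 2 lower (Skp2, Topors), against 9.99% and 8.7%. With library totals in place of scaling factors 2 were higher and 3 lower, where 62.6% of rows were called and 30.3% of these calls were upward. In ATF4 KO the counts were 3 higher and 2 lower with the set as a term, against 20.6% and 22.5% of rows. Without the libraries set apart 2 were higher (Rnf19a, Ube2h) and 4 lower (Skp2, Topors, Wwp1, Ube2r2), against 21.7% and 20.1% of rows there. The median log2 fold change of the 8 members was 0.03 in ATF4 KO and 0.13 in wild type, beside -0.03 and -0.06 over all rows in these genotypes. The comparisons within a genotype share no libraries with each other, whereas the difference of response and the comparisons of genotypes reuse the same libraries.

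**Figure D1:**
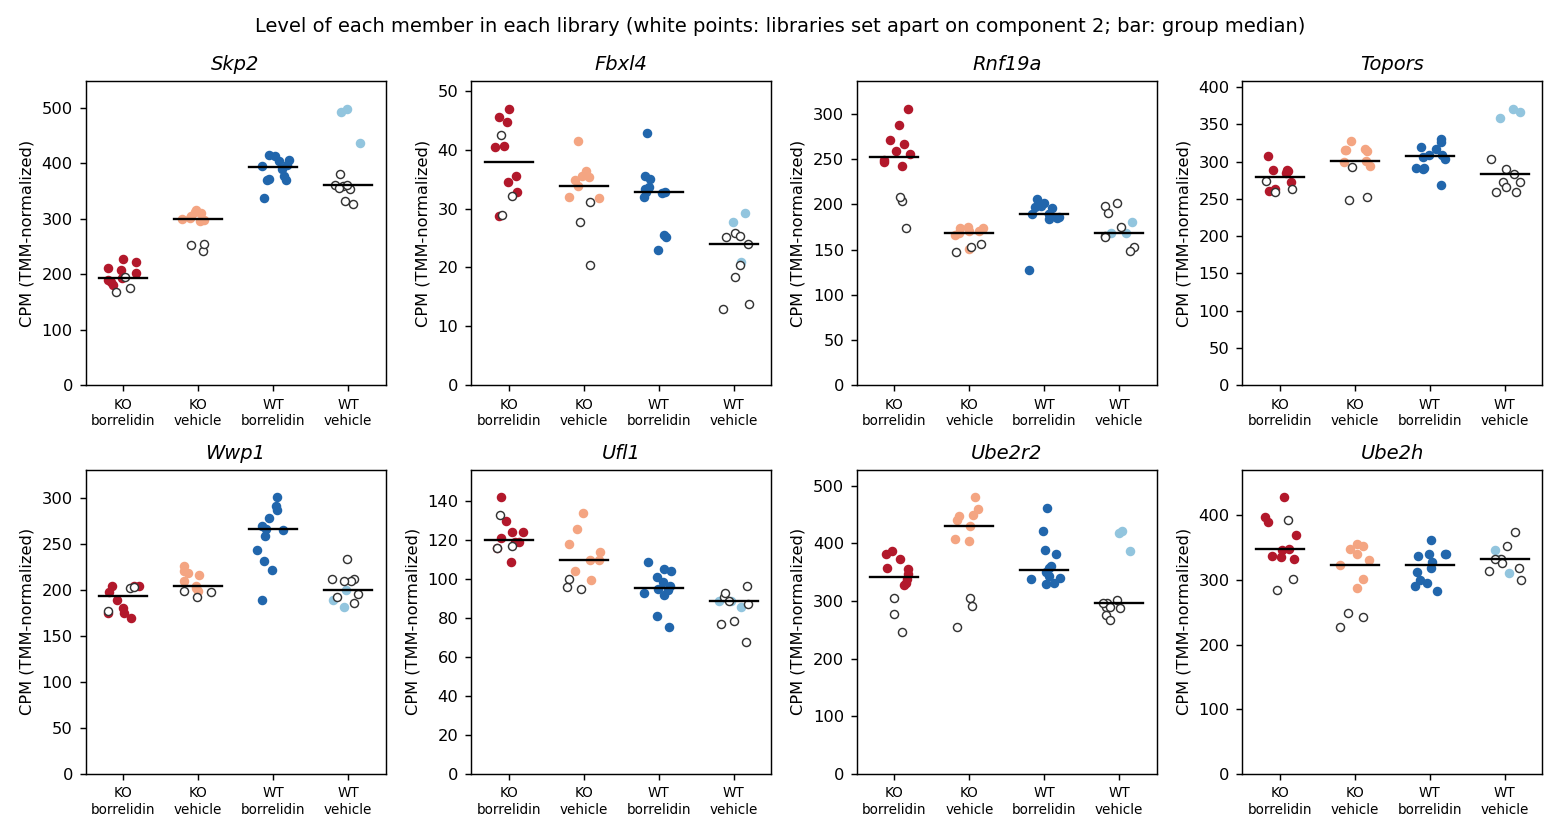
TMM-normalized CPM of each of the 8 members (y axis, from 0) in each of the 46 libraries by group (x axis), with the group median as a bar and the 14 libraries set apart as white points. Skp2 separates the groups by genotype, with 168 to 228 CPM in ATF4 KO with borrelidin, and Ube2r2 separates the white points from the filled ones in wild type with vehicle.

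Skp2 (ENSMUSG00000054115, chromosome 15, 9111985 to 9155425, minus strand) encodes the F-box protein that brings cell cycle inhibitors such as p27 to the SCF ligase. It had 168 to 228 CPM (median 193) in ATF4 KO with borrelidin, against 241 to 316 CPM (median 299) in ATF4 KO with vehicle. It had 337 to 414 CPM (median 393) in wild type with borrelidin, against 326 to 498 CPM (median 360) in wild type with vehicle. Every ATF4 KO library with borrelidin lay below every one with vehicle, and every ATF4 KO library lay below every wild type library of the same treatment. In wild type the treatments overlapped, and the 3 vehicle libraries not set apart, at 436 to 498 CPM, were above all others.

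Borrelidin lowered Skp2 in ATF4 KO cells (log2 fold change -0.56, standard error 0.07, edgeR adjusted p = 5.3e-09). In wild type the log2 fold change was 0.00 (95% interval -0.13 to 0.13, edgeR adjusted p = 0.99). The response in wild type minus that in ATF4 KO was 0.56 (standard error 0.09, edgeR adjusted p = 1.2e-05). Skp2 was lower in the ATF4 KO line than in wild type under borrelidin (log2 fold change -0.98, edgeR adjusted p = 7.5e-18) and under vehicle (-0.42, edgeR adjusted p = 2.1e-06). Under borrelidin it was the 1 member past an adjusted p of 1e-10, where 2.62% of all rows were lower at that threshold. The wild type value depended on the library set. It was -0.20 with the set as a term (edgeR adjusted p = 0.0022) and -0.30 without the libraries set apart (edgeR adjusted p = 0.0011), and the difference of response was then 0.36 and 0.30 (edgeR adjusted p = 1.1e-04 and 0.021).

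Skp2 was the 1 member whose libraries did not overlap between treatments in ATF4 KO, as for 2.5% of all rows, and in wild type 0 members did so, against 6.25% of rows. Between genotypes under vehicle 1 member (Skp2) did not overlap, against 5.38% of rows, and under borrelidin 2 members (Skp2 and Ufl1), against 11.1% of rows. Wwp1 overlapped between genotypes under borrelidin only through replicate 5 of wild type, at 189 CPM, with ATF4 KO at up to 205 CPM.

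Fbxl4 (ENSMUSG00000040410, chromosome 4, 22357543 to 22434091, plus strand) encodes an F-box protein of mitochondria, known for restraining mitophagy. It had 28.8 to 47 CPM (median 37.9) in ATF4 KO with borrelidin, against 20.4 to 41.5 CPM (median 33.8) in ATF4 KO with vehicle. It had 22.9 to 42.9 CPM (median 32.8) in wild type with borrelidin, against 12.9 to 29.3 CPM (median 23.9) in wild type with vehicle. The groups overlapped, and wild type with vehicle held the lowest libraries. Borrelidin raised it in wild type by 0.54 on the log2 scale (standard error 0.12, edgeR adjusted p = 1.9e-04), while the log2 fold change in ATF4 KO was 0.21 (95% interval -0.03 to 0.44, adjusted p = 0.18). These responses did not pass the test of their difference, which was 0.33 (95% interval -0.00 to 0.67, edgeR adjusted p = 0.11). Under vehicle Fbxl4 was higher in ATF4 KO than in wild type by 0.56 on the log2 scale (edgeR adjusted p = 1.9e-04), and under borrelidin the value was 0.23 (adjusted p = 0.083). Without the libraries set apart the wild type response was 0.31 (edgeR adjusted p = 0.16), and the genotype difference under borrelidin passed there (0.27, edgeR adjusted p = 0.015) and with the set as a term (0.31, edgeR adjusted p = 0.011).

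Rnf19a (ENSMUSG00000022280, chromosome 15, 36239933 to 36283147, minus strand) encodes dorfin, a RING-between-RING ligase. It had 174 to 306 CPM (median 252) in ATF4 KO with borrelidin, against 147 to 175 CPM (median 168) in ATF4 KO with vehicle. It had 127 to 206 CPM (median 189) in wild type with borrelidin, against 148 to 202 CPM (median 168) in wild type with vehicle. The treated ATF4 KO libraries lay above the vehicle ones but for a touch of the ranges at 174 and 175 CPM, and within each library set they did not overlap. The lowest treated ATF4 KO libraries, at 174, 204 and 208 CPM, were the 3 set apart.

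Borrelidin raised Rnf19a in ATF4 KO cells by 0.59 on the log2 scale (standard error 0.07, edgeR adjusted p = 1.0e-08). In wild type the log2 fold change was 0.11 (95% interval -0.04 to 0.26, edgeR adjusted p = 0.19). The response in wild type minus that in ATF4 KO was -0.49 (standard error 0.10, edgeR adjusted p = 3.2e-04). Under borrelidin Rnf19a was higher in ATF4 KO than in wild type by 0.40 (edgeR adjusted p = 5.1e-06), and under vehicle the value was -0.08 (adjusted p = 0.39). With the library set as a term the vehicle value was -0.18 (edgeR adjusted p = 0.044), and the wild type response was -0.04 (adjusted p = 0.78). Without the libraries set apart these values were -0.03 (adjusted p = 0.87) and 0.13 (edgeR adjusted p = 0.35).

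Topors (ENSMUSG00000036822, chromosome 4, 40259601 to 40269850, minus strand) encodes a RING protein that acts as a ligase for both ubiquitin and SUMO. It had 259 to 307 CPM (median 279) in ATF4 KO with borrelidin, against 248 to 327 CPM (median 301) in ATF4 KO with vehicle. It had 268 to 330 CPM (median 308) in wild type with borrelidin, against 259 to 371 CPM (median 283) in wild type with vehicle. With all libraries the groups overlapped and Topors passed the edgeR test in none of the 5 comparisons, with log2 values between -0.14 and 0.13, although 1 of the 5 unadjusted p-values was under 0.05 (0.026, genotypes under borrelidin). DESeq2 called that comparison (-0.14, adjusted p = 0.03). Without the libraries set apart the wild type response was -0.26 (edgeR adjusted p = 0.0019), with the 3 remaining vehicle libraries at 358 to 371 CPM, above every treated one. It also passed there in ATF4 KO (-0.14, edgeR adjusted p = 0.016) and between genotypes under borrelidin (-0.11, edgeR adjusted p = 0.021) and under vehicle (-0.23, edgeR adjusted p = 0.0062), where ATF4 KO libraries held 294 to 327 CPM and lay below all 3 wild type libraries. Topors was thus called lower in 4 of the 5 comparisons without the libraries set apart, the exception being the difference of response (-0.12, adjusted p = 0.39). With the set as a term it was called in 1, wild type (-0.14, edgeR adjusted p = 0.039), and the difference of response was -0.04 (adjusted p = 0.75). Of the exon bases of Topors, 2.93% lie under exons of Smim27 on the opposite strand, and the strand setting of the counting is not given in the sources used here.

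Wwp1 (ENSMUSG00000041058, chromosome 4, 19608303 to 19708993, minus strand) encodes a HECT ligase of the NEDD4 family. It had 170 to 205 CPM (median 193) in ATF4 KO with borrelidin, against 193 to 226 CPM (median 204) in ATF4 KO with vehicle. It had 189 to 301 CPM (median 267) in wild type with borrelidin, against 182 to 234 CPM (median 200) in wild type with vehicle. Wild type with borrelidin stood above the 3 other groups, with some overlap at its low end. Its lowest library, at 189 CPM, was replicate 5, and the next lowest had 222 CPM. Borrelidin raised Wwp1 in wild type by 0.36 on the log2 scale (standard error 0.06, edgeR adjusted p = 2.1e-06), and in ATF4 KO the log2 fold change was -0.13 (95% interval -0.25 to -0.01, edgeR adjusted p = 0.093). The difference of these responses, wild type minus ATF4 KO, was 0.48 (standard error 0.08, edgeR adjusted p = 1.7e-05). It was 0.50 with the library set as a term and 0.61 without the libraries set apart, where the ATF4 KO response of -0.17 also passed (edgeR adjusted p = 0.043). Wwp1 was lower in the ATF4 KO line than in wild type under borrelidin (-0.44, edgeR adjusted p = 7.0e-09), and under vehicle the value was 0.04 (adjusted p = 0.63).

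**Figure D2:**
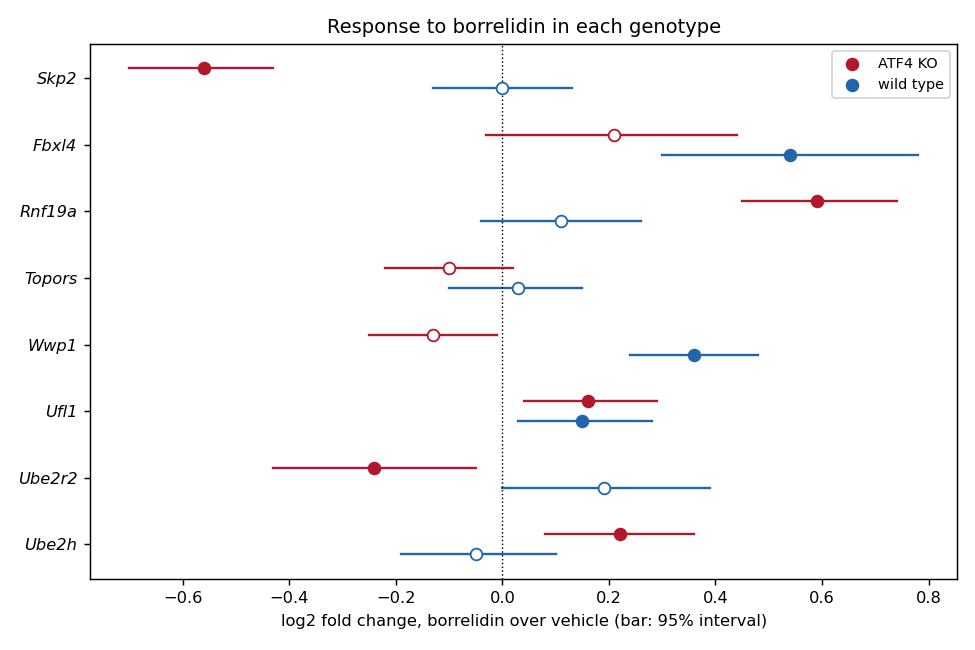
Log2 fold change of borrelidin over vehicle (x axis) for each of the 8 members (y axis), in ATF4 KO cells (red, upper point) and wild type cells (blue, lower point), from all libraries, with 95% intervals as bars. Filled points passed an adjusted p of 0.05 in edgeR, and Skp2 (-0.56) and Rnf19a (0.59) have the values farthest from 0 in ATF4 KO.

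Ufl1 (ENSMUSG00000040359, chromosome 4, 25248600 to 25281821, minus strand) encodes the E3 ligase that attaches UFM1. It had 109 to 142 CPM (median 120) in ATF4 KO with borrelidin, against 94.9 to 134 CPM (median 110) in ATF4 KO with vehicle. It had 75.5 to 109 CPM (median 95.6) in wild type with borrelidin, against 67.8 to 96.6 CPM (median 88.6) in wild type with vehicle. All treated ATF4 KO libraries lay above all treated wild type libraries, with their ends close, and the vehicle libraries overlapped slightly. Ufl1 was higher in ATF4 KO than in wild type under borrelidin by 0.36 on the log2 scale (standard error 0.06, edgeR adjusted p = 3.3e-06) and under vehicle by 0.35 (standard error 0.06, edgeR adjusted p = 1.8e-05). Borrelidin raised it by 0.16 in ATF4 KO (edgeR adjusted p = 0.045) and by 0.15 in wild type (edgeR adjusted p = 0.035), with a difference of -0.01 (95% interval -0.19 to 0.17, adjusted p = 0.95). Neither response passed without the libraries set apart (0.10, adjusted p = 0.23 in ATF4 KO, and 0.12, adjusted p = 0.41 in wild type, from edgeR), where the difference was 0.02 (adjusted p = 0.95). With the set as a term the wild type response was 0.08 (adjusted p = 0.42), and that in ATF4 KO still passed (0.16, edgeR adjusted p = 0.023).

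Ube2r2 (ENSMUSG00000036241, chromosome 4, 41135743 to 41193380, plus strand) encodes an E2 enzyme related to Cdc34, which works with SCF ligases. It had 247 to 386 CPM (median 342) in ATF4 KO with borrelidin, against 254 to 480 CPM (median 431) in ATF4 KO with vehicle. It had 329 to 462 CPM (median 354) in wild type with borrelidin, against 267 to 421 CPM (median 297) in wild type with vehicle. Its low libraries were those set apart, which averaged 276 CPM in ATF4 KO with borrelidin (355 CPM in the others), 283 CPM in ATF4 KO with vehicle (440 CPM in the others) and 288 CPM in wild type with vehicle (409 CPM in the others).

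With all libraries, borrelidin lowered Ube2r2 in ATF4 KO (-0.24, edgeR adjusted p = 0.044), its log2 fold change in wild type was 0.19 (95% interval 0.00 to 0.39, adjusted p = 0.071), and the difference, wild type minus ATF4 KO, was 0.44 (edgeR adjusted p = 0.011). The difference was 0.09 with the library set as a term (edgeR adjusted p = 0.5) and 0.15 without the libraries set apart (edgeR adjusted p = 0.39). The wild type response was then -0.15 and -0.16 (edgeR adjusted p = 0.061 and 0.18). Between genotypes Ube2r2 was higher in ATF4 KO under vehicle (0.31, edgeR adjusted p = 0.0097), which became 0.08 with the set as a term (edgeR adjusted p = 0.32) and 0.10 without the libraries set apart (edgeR adjusted p = 0.41), and under borrelidin the value was -0.13 (adjusted p = 0.24). The lower level with borrelidin in ATF4 KO was -0.31 without the libraries set apart (edgeR adjusted p = 5.7e-05), where the ranges did not overlap, at 328 to 386 CPM with borrelidin against 404 to 480 CPM with vehicle. In limma voom this response had an adjusted p of 0.064.

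Ube2h (ENSMUSG00000039159, chromosome 6, 30211289 to 30304539, minus strand) encodes the E2 enzyme of the CTLH ligase, known from red cell maturation. It had 284 to 428 CPM (median 348) in ATF4 KO with borrelidin, against 228 to 356 CPM (median 323) in ATF4 KO with vehicle. It had 283 to 362 CPM (median 324) in wild type with borrelidin, against 300 to 374 CPM (median 333) in wild type with vehicle. The groups overlapped, and the 3 lowest ATF4 KO vehicle libraries, at 228 to 249 CPM, were those set apart. Borrelidin raised Ube2h in ATF4 KO by 0.22 (standard error 0.07, edgeR adjusted p = 0.013), and in wild type the log2 fold change was -0.05 (95% interval -0.19 to 0.10, edgeR adjusted p = 0.59). The difference, wild type minus ATF4 KO, was -0.27 (edgeR adjusted p = 0.034), and -0.19 without the libraries set apart (edgeR adjusted p = 0.25). With the set as a term it was -0.42 (edgeR adjusted p = 6.6e-04) and the wild type response was -0.20 (edgeR adjusted p = 0.032), whereas without the libraries set apart the wild type response was -0.04 (adjusted p = 0.77). Between genotypes the values were 0.15 under borrelidin (adjusted p = 0.067) and -0.12 under vehicle (adjusted p = 0.2), and both passed with the set as a term (0.20, adjusted p = 0.0039, and -0.22, edgeR adjusted p = 0.0068). Without the libraries set apart the value under borrelidin passed (0.19, edgeR adjusted p = 0.0032) and that under vehicle was -0.00 (adjusted p = 0.99).

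The difference of response, wild type minus ATF4 KO, was positive and past the test in 3 of 8 members (Skp2, Wwp1, Ube2r2), against 16.5% of all rows, and negative in 2 (Rnf19a, Ube2h), against 17.1%. Of these 5, Skp2, Rnf19a and Wwp1 also passed with the set as a term and without the libraries set apart. ATF4 KO was higher than wild type under borrelidin in 2 of 8 members (Rnf19a, Ufl1), against 25.7% of rows, and lower in 2 (Skp2, Wwp1), against 24.1%. Under vehicle it was higher in 3 of 8 (Fbxl4, Ufl1, Ube2r2), against 18.1% of rows, and lower in 1 (Skp2), against 17.2%. The counts under borrelidin were 4 higher and 2 lower with the set as a term, against 26.7% and 28% of rows. Without the libraries set apart they were 4 and 3, against 27.1% and 27.2%. Under vehicle the counts were 2 higher and 3 lower with the set as a term, against 17.5% and 17.6% of rows. Without the libraries set apart they were 2 and 2, against 10.9% and 10.3%.

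**Figure D3:**
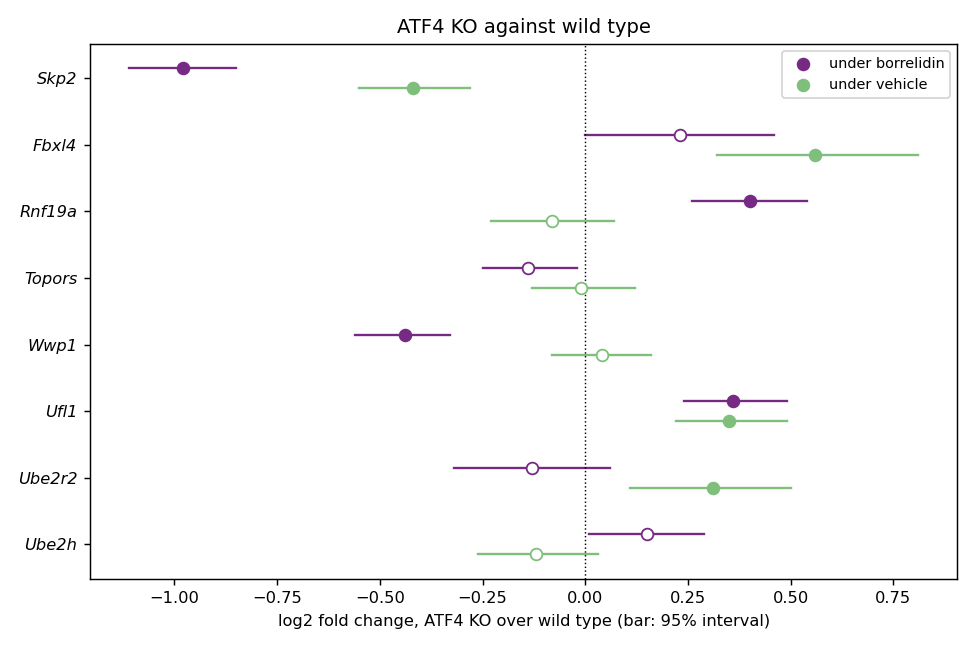
Log2 fold change of ATF4 KO over wild type (x axis) for each of the 8 members (y axis), under borrelidin (purple, upper point) and under vehicle (green, lower point), from all libraries, with 95% intervals as bars. Filled points passed an adjusted p of 0.05 in edgeR, and Skp2 is lower and Ufl1 higher in ATF4 KO under both treatments.

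**Figure D4:**
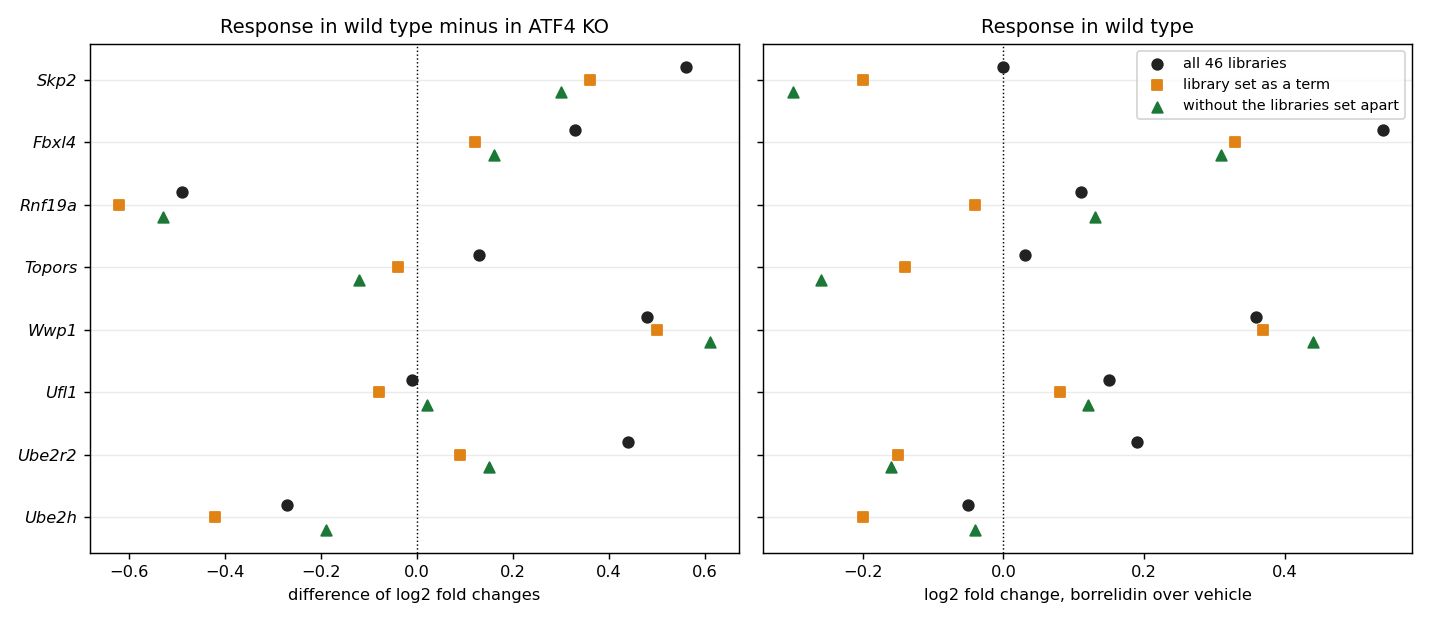
Difference of the borrelidin response, wild type minus ATF4 KO (left), and borrelidin response in wild type (right), on the log2 scale, for each of the 8 members, with all 46 libraries (circles), with the library set as a term (squares) and without the 14 libraries set apart (triangles). The difference for Ube2r2 moves to 0.09 and 0.15, against 0.44 with all libraries, while Rnf19a and Wwp1 keep values of at least 0.48 in size.

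Beside the members, 27 of 571 other listed genes of these systems lie in the segments, and 20 passed the filter on low counts. With all libraries, borrelidin raised 5 and lowered 3 of the 20 in ATF4 KO (median log2 fold change 0.11), against 15% and 15.3% of all rows, and raised 13 and lowered 2 in wild type (median 0.33), against 26.5% and 32.9%. The wild type count changed with the handling of the library set. Of the 20 genes, with the set as a term, 5 were higher (Zc3hc1, Klhdc10, Rnf20, March6 and Rad23b, all among the 13) and 3 lower in wild type (median 0.02), against 14% and 15.8% of rows, and 4 of the 13 (Ube2j1, Dcaf12, Bag1, Ubap1) had values below 0. Once the libraries set apart were left out, 3 were higher and 1 lower (median -0.03), against 9.99% and 8.7% of rows. In ATF4 KO 8 were higher and 3 lower with the set as a term, against 20.6% and 22.5% of rows. The counts were also 8 and 3 without the libraries set apart, against 21.7% and 20.1%. Each time all 8 genes called with all libraries were among those called.

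The difference of response, wild type minus ATF4 KO, passed in 7 upward and 1 downward with all libraries, against 16.5% and 17.1% of rows. It passed with the set as a term in 2 upward (Usp45, Ubap2) and 4 downward (Trim14, Ube2j1, Dcaf10, Ubap1), against 11.1% and 9.25%, so the balance of directions turned. Bag1, Dcaf10 and Ubap1 are named after their values were seen. Without the libraries set apart it passed in 1 upward (Ubap2) and 3 downward (Trim14, Ube2j1, Dcaf10), against 6.28% and 3.62%. Between genotypes, 4 were higher and 10 lower in ATF4 KO under borrelidin with all libraries, against 25.7% and 24.1% of rows. With the set as a term 5 and 8 were, against 26.7% and 28%, and without the libraries set apart 5 and 9, against 27.1% and 27.2%. Under vehicle 8 were higher and 2 lower with all libraries, against 18.1% and 17.2% of rows. With the set as a term 5 and 3 were, against 17.5% and 17.6%, and without the libraries set apart 3 and 2, against 10.9% and 10.3%.

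Trim14, an antiviral TRIM protein, had the value farthest from 0 among the genes named here. It averaged 94.9 ± 28.7 CPM in ATF4 KO with borrelidin and 55.3 ± 13.6 CPM in ATF4 KO with vehicle (SD, n = 12 and 11), against 2.73 ± 1.08 and 8.28 ± 3.29 CPM in wild type with borrelidin and with vehicle. Borrelidin raised it in ATF4 KO (log2 fold change 0.78, edgeR adjusted p = 1.2e-04) and lowered it in wild type (-1.61, edgeR adjusted p = 5.3e-07), where the value was -0.65 without the libraries set apart (edgeR adjusted p = 0.35). March6, a ligase of the endoplasmic reticulum membrane, rose with borrelidin in ATF4 KO (0.25, adjusted p = 0.0041) and in wild type (0.39, edgeR adjusted p = 4.8e-06), and Rnf20, which ubiquitinates histone H2B, rose too (0.13 and 0.27, adjusted p = 0.041 and 1.5e-05), with a wild type value of 0.20 without the libraries set apart (edgeR adjusted p = 0.07).

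The 3 tested deubiquitinases were Usp45, Otud6b and Otulin, which cleaves linear ubiquitin chains. With all libraries each was called higher with borrelidin in wild type (0.32, 0.42 and 0.65), and the difference of response passed in each (0.61, 0.49 and 0.50). In ATF4 KO Usp45 was called lower (-0.29, edgeR adjusted p = 0.0047), and Otud6b and Otulin had -0.07 and 0.16 (adjusted p = 0.64 and 0.42). The fall of Usp45 in ATF4 KO was -0.30 with the set as a term and -0.28 without the libraries set apart (edgeR adjusted p = 5.9e-04 and 0.0034). None of the 3 wild type responses passed with the library set as a term (0.19, 0.05 and 0.17, adjusted p = 0.083, 0.53 and 0.23) or without the libraries set apart (-0.05, 0.00 and 0.26, adjusted p = 0.8, 0.99 and 0.19, from edgeR). The differences were 0.49 (adjusted p = 7.6e-04), 0.14 (0.2) and 0.04 (0.86) with the set as a term, and 0.23 (0.3), 0.07 (0.74) and 0.08 (0.84) without the libraries set apart.

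Of the 6 shuttle and binding factors tested, Vcp, the segregase that extracts ubiquitinated proteins, fell in ATF4 KO (-0.30, edgeR adjusted p = 0.0011), and its wild type log2 fold change was 0.06 (adjusted p = 0.47), a difference of 0.37 (edgeR adjusted p = 0.0063). The wild type value was -0.18 with the set as a term (edgeR adjusted p = 0.0045) and -0.21 without the libraries set apart (edgeR adjusted p = 0.0082), and the difference was then 0.12 and 0.14 (adjusted p = 0.22 and 0.29). Rad23b, which carries substrates to the proteasome, rose in wild type (0.62, edgeR adjusted p = 1.2e-05), and by 0.16 with the set as a term (edgeR adjusted p = 0.012). Ubap2 fell in ATF4 KO (-0.48, adjusted p = 1.8e-06) and in wild type (-0.39, edgeR adjusted p = 2.5e-05), where the value was -0.21 without the libraries set apart (edgeR adjusted p = 0.087).

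Among the other named genes, Ube2j1, an E2 enzyme of the endoplasmic reticulum, was called higher in wild type with all libraries (0.35, edgeR adjusted p = 0.0049) and had -0.09 with the set as a term (adjusted p = 0.16) and -0.08 without the libraries set apart (adjusted p = 0.4). In ATF4 KO its value was 0.19 (adjusted p = 0.19), which passed as 0.18 with the set as a term (edgeR adjusted p = 1.9e-04). Zc3hc1, an F-box-like protein, rose in ATF4 KO (0.61, adjusted p = 0.001) and in wild type (1.08, edgeR adjusted p = 4.4e-08). Fbxo10, an F-box protein, was lower in the ATF4 KO line than in wild type under borrelidin (-0.43, adjusted p = 8.7e-04) and under vehicle (-0.60, edgeR adjusted p = 3.2e-05). Klhdc10 and Dcaf12, substrate receptors of cullin ligases, were called higher in wild type with all libraries (0.35 and 0.13, edgeR adjusted p = 6.5e-06 and 0.049). With the set as a term their values were 0.18 (adjusted p = 0.0098) and -0.05 (adjusted p = 0.44), and without the libraries set apart 0.13 and -0.06 (edgeR adjusted p = 0.26 and 0.6).

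Across the 46 libraries, the members did not follow 1 pattern. The Pearson r of log2 CPM between members ran from -0.69 (Skp2 and Ufl1) to 0.72 (Fbxl4 and Ufl1), with libraries sharing group, set and depth. Among 289 other protein-coding genes of the segments, those most like Skp2 were Rida (r = 0.91), Smo (0.86) and Nol6 (0.86), and those most like Ube2r2 were Dnaja1, Sdcbp and Tes (0.89 each). Retreg1 (0.85) was most like Ufl1, 2610301B20Rik (0.81) most like Fbxl4, Vcp (0.78) most like Topors, Zfr (0.76) most like Rnf19a, Mdfic (0.76) most like Wwp1 and Tspan33 (0.64) most like Ube2h.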

How the data were processed

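RNA of MEFs was sequenced and the authors deposited raw read counts for each mouse gene identifier and library, not normalized and not pooled. According to the submitters' processing notes, HISAT2, HTSeq and mm10 were used, and the study's methods name fastp, HISAT2 and feature counts. Not given in the sources used here: versions, annotation release and strand setting. The 5 closing rows name no gene and stayed out of library sizes and tests. Per library, the mean shares in them were 69.0% (no feature), 10.8% (unaligned), 5.1% (low quality), 4.0% (not unique) and 0.3% (ambiguous).

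Of 55416 identifiers, 52083 are in GENCODE M21 (GRCm38), which gave names, coordinates and exon lengths. Over genes also found in a shortened copy of the study's table, the log2 mean level here was correlated with its mean level. The r was 0.98 in the 3 segments (34 genes) and 0.15 elsewhere (743 genes). The 34 genes were protein-coding and had a looser limit on level. The 743 genes were of any type and had passed the filter on low counts. The segments had been chosen on such levels, so the first value is no independent check. The members, gene lists and tests were chosen with earlier results of these data known.

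Counts were analysed with edgeR 4.0.16 in R 4.3.3 (quasi-likelihood test after TMM scaling and filterByExpr by group, Benjamini-Hochberg adjustment over 8986 rows), with all 46 libraries in 1 fit of 4 group means. The 5 contrasts compared treatments within each genotype, genotypes within each treatment, and the responses of the genotypes. Fits were tested on simulated counts. The power requirement first set for that test was missed by the difference of response, which has less power than the other contrasts, and was replaced by requirements on sign, size and false calls. The 95% intervals used the t distribution with 42 residual degrees of freedom. Levels are TMM-normalized CPM, and within groups every pair of libraries differed by more than counting noise, with a chi-square of at least 1.89 per degree of freedom. Alternatives were median ratio factors, library totals, no filter, DESeq2 1.42.0, limma voom 3.58.1, the compared groups alone, the replicate number as a block, the library set as a term, leaving out the libraries set apart, a threshold of 1e-10, and, for wild type, a model of ATF4 activity and genotype. Libraries were set apart where the widest gap of component 2 scores (500 most variable rows) passed 0.5 of the range of the group.

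Same-numbered ATF4 KO libraries deviated together from their group means in 11 of 11 pairs (r 0.18 to 0.78). The ATF4 KO libraries set apart carry the numbers 1 to 3 in both treatments, so sharing a set gives such agreement too. Without them 2 of 8 pairs passed 0.1 (r -0.05 to 0.12). Whether the numbers pair libraries therefore cannot be told from this, and the main fit held no pairing term. In the other comparisons, with all libraries, 2 of 11, 5 of 10 and 3 of 12 pairs passed 0.1. Named were all members, of each list the genes with the smallest p for borrelidin in wild type and for the difference of response (up to 2 each), and the genes most alike in pattern.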

Additional observations from a re-analysis of the deposited data

Results flagged for a closer look

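Borrelidin responses that differed between the genotypes by a test of the difference itself were those of 5 of 8 members, against 33.6% of all rows. Each is given as wild type minus ATF4 KO on the log2 scale. The differences were 0.56 for Skp2 (edgeR adjusted p = 1.2e-05), 0.48 for Wwp1 (1.7e-05), 0.44 for Ube2r2 (0.011), -0.27 for Ube2h (0.034) and -0.49 for Rnf19a (3.2e-04). Those of Ube2r2 and Ube2h did not pass without the libraries set apart, and that of Ube2r2 also did not with the set as a term.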

How the results depend on the processing

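Of 360 values of single members under alternatives, 292 kept their direction and their side of the threshold. With the direction kept, 22 no longer passed and 22 newly passed. A further 24 changed sign, most of these in values that were near 0 and did not pass in the main fit. Among the 24, Skp2 and Topors in wild type turned to lower and passed in edgeR. This was so with library totals (adjusted p = 0.024 and 0.049), with the set as a term (0.0022 and 0.039) and without the libraries set apart (0.0011 and 0.0019). With library totals the median of all rows moved by -0.16 for borrelidin in wild type, -0.23 for the difference of response and 0.16 for the genotypes under borrelidin, so those values are to be read against that shift. The causes were not tested.

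At a threshold of 1e-10, 0 members passed in 4 comparisons and 1 in the genotypes under borrelidin. For borrelidin in wild type, 5 members passed with library totals and 5 with the set as a term (2 higher and 3 lower in each), against 3 (3 higher and 0 lower). Of all rows tested, 62.6% and 29.8% passed in these fits, against 59.4%. For borrelidin in ATF4 KO 2 members passed with no filter, against 5, and of all rows tested 6.09% passed, against 30.3%. For the difference of response 3 members passed without the libraries set apart (2 upward, 1 downward), against 5 (3 and 2). Of all rows 9.9% passed there, against 33.6%. For the genotypes under borrelidin 7 members passed without the libraries set apart and 7 with the compared groups alone, against 4 (4 higher and 3 lower, against 2 and 2). Of all rows 54.3% and 52.8% passed in these fits, against 49.8%.

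In wild type Skp2 became -0.00 with median ratio factors, -0.14 with library totals, -0.20 with the set as a term, -0.30 without the libraries set apart, -0.02 with the compared groups alone and -0.00 with DESeq2. Rnf19a became -0.04 with library totals and -0.04 with the set as a term. Topors became -0.12, -0.14 and -0.26 with library totals, the set as a term and without the libraries set apart. Ube2r2 became -0.15 with the set as a term and -0.16 without the libraries set apart, and Ube2h 0.01 with no filter. The difference for Topors became -0.09, -0.04 and -0.12 with library totals, the set as a term and without the libraries set apart, and that for Ufl1 became 0.03 with no filter and 0.02 without the libraries set apart. Between genotypes, Topors became 0.03 with no filter under vehicle and 0.02 with library totals under borrelidin, Wwp1 -0.03 with library totals under vehicle, and Ube2r2 0.03 with library totals under borrelidin.

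With replicate numbers as a block, the members passing were 3 for borrelidin in wild type, 5 in ATF4 KO, 5 for the difference, 4 for genotypes under vehicle and 4 under borrelidin, the same counts as without it. Of all rows, 61.2%, 34.7%, 42.6%, 39.6% and 50.7% passed with the block, in the same order. The block turned Topors between genotypes under vehicle to 0.03, and changed 2 calls, those of Ufl1 (0.16, edgeR adjusted p = 0.055) and Ube2r2 (0.21, edgeR adjusted p = 0.0096) in wild type, and no other call. Beyond the library set, same-numbered libraries are known to share only a number. Groups of 11 and 12 libraries were not refitted without single libraries.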
